A study of Mus musculus with 48 samples.

Results

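The 38 genes described here encode subunits of voltage-gated sodium and calcium channels in the mouse. They belong to a set of 40 taken by name from a table of 38293 genes: every protein-coding gene whose symbol belongs to the Scn alpha, Scn beta, Cacna1, Cacna2d, Cacnb or Cacng families. The rule uses names and no measured value. The 38 are 9 pore-forming sodium channel genes (Scn alpha), 3 auxiliary sodium channel genes (Scn beta), 10 pore-forming calcium channel genes (Cacna1), 4 alpha2delta genes (Cacna2d), 4 cytoplasmic beta genes (Cacnb) and 8 gamma genes (Cacng).

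Sodium channel alpha subunits form the pore that opens on depolarisation and carries the rising phase of the action potential, and beta subunits are single-pass membrane proteins that change its gating and its place in the membrane. Calcium channel alpha1 subunits turn depolarisation into calcium entry for transmitter release, pacemaking and gene regulation. Beta and alpha2delta subunits bring high-voltage-activated alpha1 subunits to the membrane, while most gamma proteins of the brain act on AMPA-type glutamate receptors as TARPs (transmembrane AMPA receptor regulatory proteins).

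RNA was sequenced from 2 brain regions, the DVC (dorsal vagal complex, where vagal gut signals enter the hindbrain) and the MBH (mediobasal hypothalamus), of male C57/Bl6 mice aged 9 weeks that had been fasted for 6 h. Each region gave ribosome-bound RNA, captured through phosphorylated ribosomal protein S6, a mark of active neurons (pS6 IP), and total RNA from a small share of the same kind of homogenate (input). The mice were injected intraperitoneally (10 µL/g) with AC3174 (dose 1 µg/kg), with AC170222 (dose 2.5 µg/kg), with both drugs, or with saline. By its title, the study asks how combined GLP-1 and CCK therapy suppresses feeding.

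This gave 16 groups of 3 libraries, 48 in all: DVC IP, DVC input, MBH IP and MBH input, each with AC3174, AC170222, the combination or saline. The protocol also names AC710222 at 2.5 or 10 µg/kg, and the treatment field of the labels writes AC710222 where the titles write AC170222, so the dose behind that group is not certain. The doses within the combination, the interval before dissection and how many mice made up a sample are not stated in the labels. Nothing in the labels says that the 3 libraries of a group came from separate animals, so p-values measure the spread between libraries, which may be technical. All tissues are whole dissected regions with every cell type, and in total RNA fewer cells of a type and less RNA per cell cannot be told apart. The labels give no date or run of library preparation by region, so a processing batch that followed region cannot be told apart from region.

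Total counts per library were 102116189 to 191252522 for DVC IP and 29492622 to 95079227 for DVC input; those for MBH IP were 21782798 to 73940674, and those for MBH input 36542586 to 80084056. The region labels fitted their markers: Hoxb5, Hoxa5 and Tlx3, hindbrain transcription factors, had counts in every DVC input library and none in the 12 MBH input libraries, while Pomc and Nkx2-1 were lower in DVC. Of 6 DVC markers 5 were called higher in DVC total RNA and 1 (Th) lower, and all 6 MBH markers in the table were called lower. Libraries stood apart in complexity. Fewer than 12000 genes had a count in 1 DVC IP library (AC3174 replicate 3) and in 5 MBH IP libraries, and MBH input saline replicate 2 held 12853 genes with a count.

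Of the 38 channel genes, 18 to 28 had a count in a DVC IP library, 28 to 33 in a DVC input library, 9 to 30 in an MBH IP library and 20 to 36 in an MBH input library. Every library of a kind had counts for 11 of the genes in DVC IP, for 23 in DVC input, for 6 in MBH IP and for 17 in MBH input. The DVC IP libraries were the deepest and yet missed more of the channel genes than the shallower DVC inputs. The plot of detection sets the channel genes seen against all genes seen in a library, and the 2 did not move evenly together. The MBH IP library with 6285 genes had 9 channel genes. DVC IP AC170222 replicate 2 (15857 genes) and AC3174 replicate 3 (9925 genes) both had 18. MBH input AC3174 replicate 3 (15774 genes) had 30. No correlation was computed.

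**Figure D1:**
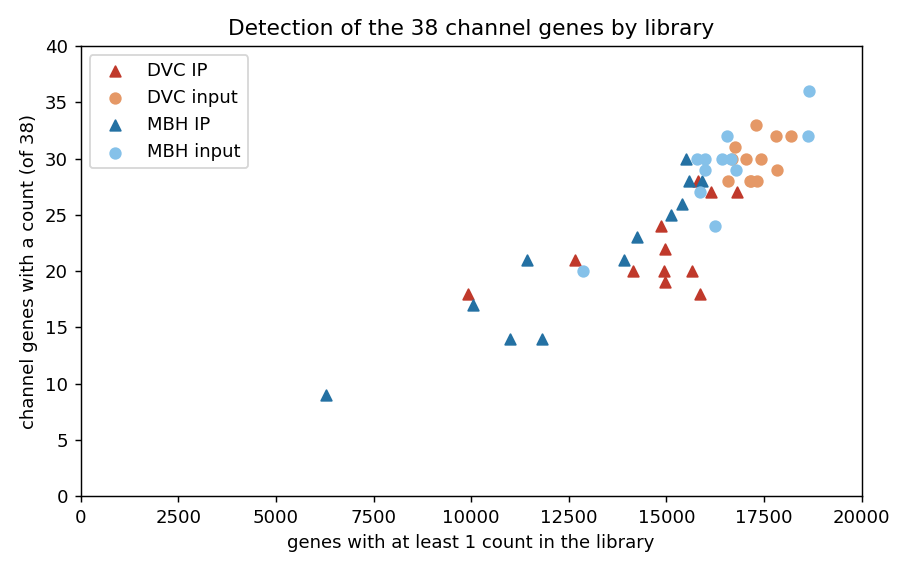
Channel genes with at least 1 count (of 38, y axis) against all genes with at least 1 count (x axis), 1 point per library, for DVC IP, DVC input, MBH IP and MBH input (12 libraries each). The MBH IP libraries reach down to 9 channel genes, and the DVC inputs sit between 28 and 33.

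MBH input saline replicate 2 had 0.0542 CPM of Scn1a, 1.16 CPM of Scn2a, 1.34 CPM of Cacng2 and no count of Scn3b, the lowest values of the 12 MBH inputs. The same library had the highest MBH input values of Cacna1a (32.2 CPM), Cacna1b (57.6 CPM) and Scn2b (122 CPM). Its summed level of 8 neuronal markers, 6526 CPM, lay above the 4637 to 6211 CPM of the other 11 MBH inputs. The sum was mostly Snap25, and the markers went both ways. Snap25 (4208 CPM), Tubb3 (599 CPM) and Elavl4 (333.5 CPM) were above the other 11, and Rbfox3 (44.7 CPM) and Nefl (375 CPM) below them. Syt1, Stmn2 and Nefm lay within the range of the others. CPM are counts scaled to a fixed library size after TMM adjustment, and the 2 mean levels that this library moved by over 1.5 times, those of Cacna1a and Cacna1b, are also given without it.

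Levels per length (RPKM, CPM per kilobase of all annotated exons of the gene) allow genes to be set side by side, and are given as mean ± SD over 12 libraries. Of the 38 genes, Scn4b, Cacnb3, Cacnb4 and Cacnb1 had the highest means in DVC input, and each lay within 1 SD of its neighbours in that order. In MBH input the order of the 38 began with Cacnb3, Cacnb1 and Cacnb4. All of these encode auxiliary beta subunits, and each stood above every pore-forming gene of its region in input RPKM. In DVC this order rests on the division by exon length. By mean CPM, Scn1a in DVC input (104.8) lay above Scn4b (93.6), Cacnb1 (66.9) and Cacnb3 (66.2) and below Cacnb4 (138.7). The heatmap of the 38 genes is in CPM and shows the scattered zeros of the IP libraries.

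**Figure D2:**
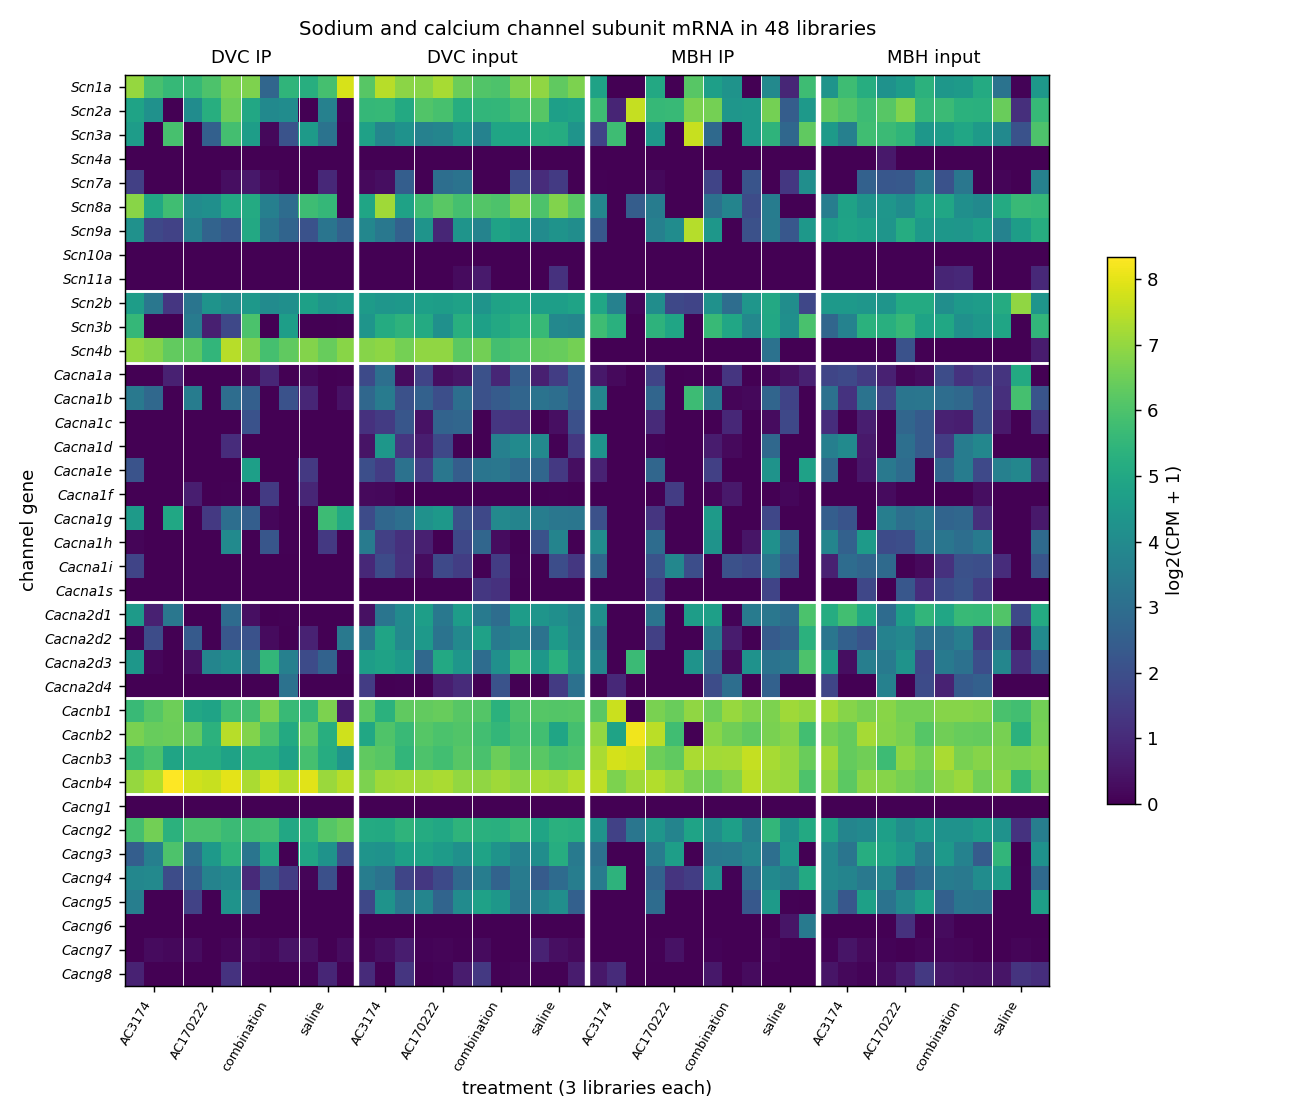
log2(CPM + 1) of the 38 channel genes (rows, by family: sodium alpha, sodium beta, calcium alpha1, alpha2delta, beta, gamma) in 48 libraries (columns, by region and RNA kind, then by treatment, 3 libraries each). Scn4b is bright in the DVC blocks and dark in the MBH blocks, and Scn10a is at 0 in all 48 libraries.

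Among the pore-forming sodium channel genes, Scn1a (Nav1.1, a main channel of fast-spiking inhibitory neurons) averaged 6.90 ± 5.27 RPKM in DVC IP against 9.41 ± 3.12 in DVC input, and 1.81 ± 2.08 in MBH IP against 2.19 ± 1.28 in MBH input. Scn2a (Nav1.2, found in unmyelinated axons and immature initial segments) averaged 1.69 ± 1.89 RPKM in DVC IP against 3.64 ± 1.16 in DVC input, and 4.6 ± 4.33 in MBH IP against 4.47 ± 2.14 in MBH input. Scn8a (Nav1.6, the main channel of mature initial segments and nodes of Ranvier) averaged 2.18 ± 1.95 RPKM in DVC IP against 4.56 ± 2.07 in DVC input, and 0.326 ± 0.343 in MBH IP against 1.63 ± 0.784 in MBH input. Scn1a was the first of these in DVC input and Scn2a the first in MBH input.

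Scn3a (Nav1.3, best known from embryonic brain) averaged 1.35 ± 1.72 RPKM in DVC IP against 1.75 ± 0.711 in DVC input, and 2.85 ± 4.54 in MBH IP against 2.39 ± 1.51 in MBH input. Scn9a (Nav1.7, known from pain-sensing and hypothalamic neurons) averaged 0.684 ± 0.662 RPKM in DVC IP against 1.16 ± 0.568 in DVC input, and 1.69 ± 3.72 in MBH IP against 1.88 ± 0.514 in MBH input. Both lay below Scn2a in the mean of each input set. Gm13629, an antisense gene, overlaps 1.41% of the exon bases of Scn9a. Scn7a (Nax, a sodium sensor of glia) averaged 0.0426 ± 0.0818 RPKM in DVC IP against 0.292 ± 0.400 in DVC input, and 0.270 ± 0.633 in MBH IP against 0.523 ± 0.568 in MBH input. Scn11a (Nav1.9, of sensory ganglia) was at 0 in all 12 DVC IP libraries, against a mean of 0.0280 ± 0.0655 RPKM in DVC input, and 0 in all 12 MBH IP libraries against 0.0386 ± 0.0700 in MBH input. Scn4a, the muscle channel, had counts in 1 MBH input library and in none of the other 47, and Scn10a (Nav1.8, of sensory ganglia) had no count in any library.

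The auxiliary sodium channel genes are described next by their mean level. Scn2b, which is linked to the alpha subunit by a disulphide bond, averaged 3.50 ± 1.52 RPKM in DVC IP against 5.21 ± 0.683 in DVC input, and 2.81 ± 2.29 in MBH IP against 6.91 ± 6.22 in MBH input. Scn3b, whose product binds the alpha subunit without such a bond, averaged 2.23 ± 3.88 RPKM in DVC IP against 5.37 ± 2.09 in DVC input, and 5.49 ± 3.59 in MBH IP against 4.72 ± 2.75 in MBH input. Scn4b, whose cytoplasmic tail can act as the open-channel blocker behind resurgent sodium current, averaged 19.4 ± 6.88 RPKM in DVC IP against 18.8 ± 4.58 in DVC input, and 0.132 ± 0.458 in MBH IP against 0.0647 ± 0.191 in MBH input.

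As shares of the summed RPKM of the 9 pore-forming sodium channel genes, Scn1a made up a median 43.5% in DVC input and 14.6% in MBH input. Scn2a made up 18.2% in DVC input and 31.1% in MBH input, and Scn8a 21.3% in DVC input and 10.4% in MBH input. Scn3a held 8.44% in DVC input and 16.4% in MBH input, and Scn9a 6.75% in DVC input and 14.2% in MBH input. Scn1a thus held the highest median share in DVC and Scn2a in MBH. The sums themselves had medians of 19.6 RPKM in DVC input and 12.9 RPKM in MBH input.

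**Figure D3:**
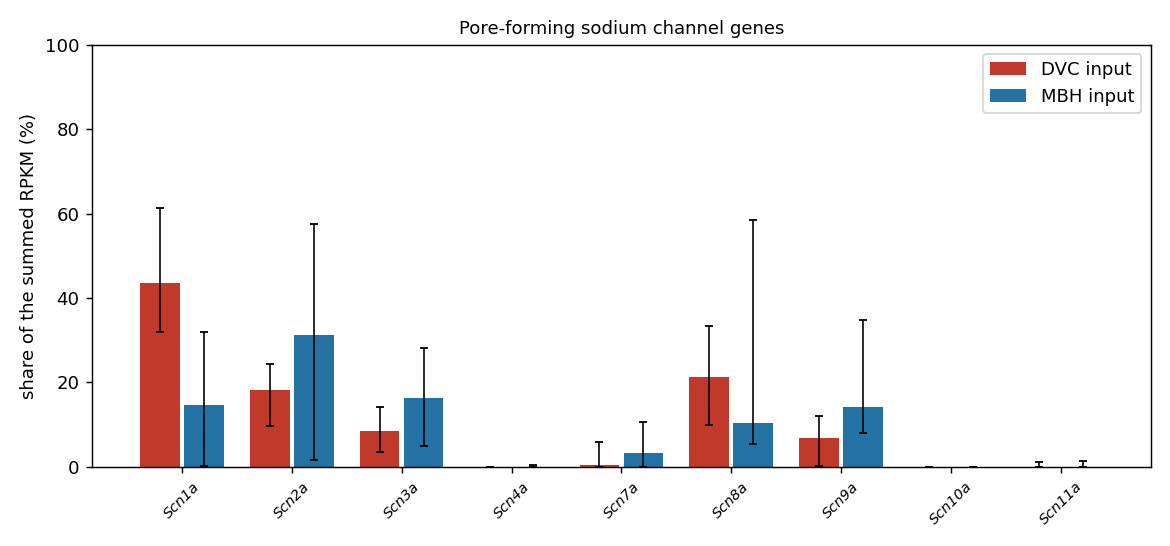
Share of each gene in the summed RPKM of the 9 pore-forming sodium channel genes, in percent, for DVC input and MBH input. Bars are medians of 12 libraries and lines run from the lowest to the highest library; Scn1a leads in DVC and Scn2a in MBH.

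Total RNA of the 2 regions was compared over all 24 input libraries (mean of the 4 DVC groups minus mean of the 4 MBH groups, edgeR quasi-likelihood test, 2-sided, p-values adjusted by Benjamini-Hochberg over all genes tested, called under 0.05). Of the 34 channel genes that passed the filter on low counts, 6 were higher and 3 lower in DVC. Over all 18576 genes tested, 11.7% were called higher and 10.2% lower, 21.9% in all. The called share of the channel genes, 26.5%, lay near that background, and their median log2 difference was 0.02, against 0.10 over all genes tested.

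Scn4b had the largest log2 difference between the regions of the 34 members tested. It ranged over 57.3 to 123 CPM (median 94.5) in DVC inputs, and in MBH inputs it had counts in 3 of 12 libraries, the highest 3.30 CPM. The 2 sets did not overlap: every DVC library lay above every MBH library. How many of all genes separated between the regions was not counted, in total RNA or on pS6 ribosomes. The log2 difference was 11.16 ± 1.10 (SE; edgeR adjusted p = 1.09e-06), a fitted value that depends on the prior count because 9 MBH libraries were at 0.

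Scn2b and Scn3b were not called: Scn2b averaged 24.3 ± 3.18 CPM in DVC and 32.2 ± 29.0 CPM in MBH (24.0 ± 6.43 CPM in MBH without saline replicate 2; log2 difference -0.25 ± 0.23, edgeR adjusted p = 0.511). Scn3b averaged 29.3 ± 11.4 CPM in DVC and 25.8 ± 15 CPM in MBH (log2 difference 0.25 ± 0.57, edgeR adjusted p = 0.880).

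Scn2b and Scn4b are neighbours on the same strand of chromosome 9, with 8324 bases between the annotated genes, and only the second of them was called between the regions; whether the 2 differences differ was not tested. The 250 bases before the RefSeq start of each (GRCm38.p6, plus strand, CpG dinucleotides in capitals) are shown because the neighbours differ in base composition. The first window is chr9:45138374-45138623 and the second chr9:45117626-45117875. In GENCODE the genes start earlier, at 45138395 for Scn4b and 45117782 for Scn2b, so part of each window lies inside the annotated gene.
Scn4b: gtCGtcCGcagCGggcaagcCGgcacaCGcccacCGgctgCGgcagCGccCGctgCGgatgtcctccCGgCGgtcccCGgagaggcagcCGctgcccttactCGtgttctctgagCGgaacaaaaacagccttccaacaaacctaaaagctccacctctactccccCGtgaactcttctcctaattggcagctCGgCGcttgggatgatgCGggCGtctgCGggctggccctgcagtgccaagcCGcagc
Scn2b: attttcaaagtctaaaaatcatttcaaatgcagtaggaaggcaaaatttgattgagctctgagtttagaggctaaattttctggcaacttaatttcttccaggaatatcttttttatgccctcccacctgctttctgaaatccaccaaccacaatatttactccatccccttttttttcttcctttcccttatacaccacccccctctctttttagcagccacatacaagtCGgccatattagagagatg
The Scn4b window has 66.0% G and C and 23 CpG dinucleotides, and the Scn2b window has 38.4% and 1. Over the 32851 RefSeq promoter windows of this length the median was 52.4% and 6 CpG, and 13.3% had 23 or more. On both strands, neither window holds the GC box letters GGGCGG, found in 32.7% of the windows. Neither holds the core promoter letters TATAAA, found in 12.4%.

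Scn1a and Scn8a were the pore-forming sodium channel genes called between the regions. Scn1a ranged over 63.0 to 175 CPM (median 104) in DVC inputs and 0.0542 to 52.5 CPM (median 21.5) in MBH inputs. The sets did not overlap. The log2 difference was 2.25 ± 0.45 (edgeR adjusted p = 0.00108), and 2.10 without MBH input saline replicate 2 (edgeR adjusted p = 2.05e-06).

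Scn8a ranged over 26.9 to 141 CPM (median 66.2) in DVC inputs and 10.6 to 49.4 CPM (median 23.1) in MBH inputs. In 10 of 12 DVC libraries it lay above every MBH library, and the log2 difference was 1.58 ± 0.26 (edgeR adjusted p = 0.000170). Scn2a was not called: it ranged over 25.1 to 70.6 CPM (median 45.7) in DVC inputs and 1.16 to 106 CPM (median 51.5) in MBH inputs, with a log2 difference of -0.24 ± 0.37 (edgeR adjusted p = 0.756). Other alpha genes had log2 differences of -0.46 ± 0.36 for Scn3a, -0.74 ± 0.35 for Scn9a and -1.11 ± 1.45 for Scn7a, with edgeR adjusted p of 0.140 or more.

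Scn1a, Scn2a, Scn3a, Scn7a and Scn9a lie in 1 cluster on chromosome 2 (GRCm38, 65457118 to 66784914), and 1 of these 5 genes was called between the regions. The windows before the starts of Scn1a (chr2:66440838-66441087, minus strand) and Scn2a (chr2:65620519-65620768, plus strand) are shown as the members of the cluster that lead in DVC and in MBH; sequence is from RefSeq GRCm38.p6, with CpG in capitals.
Scn1a: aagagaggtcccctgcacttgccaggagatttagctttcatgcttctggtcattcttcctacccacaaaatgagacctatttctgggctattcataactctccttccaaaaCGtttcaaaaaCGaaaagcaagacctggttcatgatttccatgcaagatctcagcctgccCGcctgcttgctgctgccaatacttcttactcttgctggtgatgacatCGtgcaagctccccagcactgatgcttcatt
Scn2a: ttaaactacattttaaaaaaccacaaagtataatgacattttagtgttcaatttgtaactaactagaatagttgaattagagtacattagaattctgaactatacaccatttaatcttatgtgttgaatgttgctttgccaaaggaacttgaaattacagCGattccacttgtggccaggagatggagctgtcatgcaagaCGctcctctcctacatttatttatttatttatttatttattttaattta
These windows hold 4 and 2 CpG dinucleotides, with 46.8% G and C for Scn1a and 29.6% for Scn2a, and neither holds GGGCGG or TATAAA. Of all windows, 44.4% have 4 or fewer CpG.

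**Figure D4:**
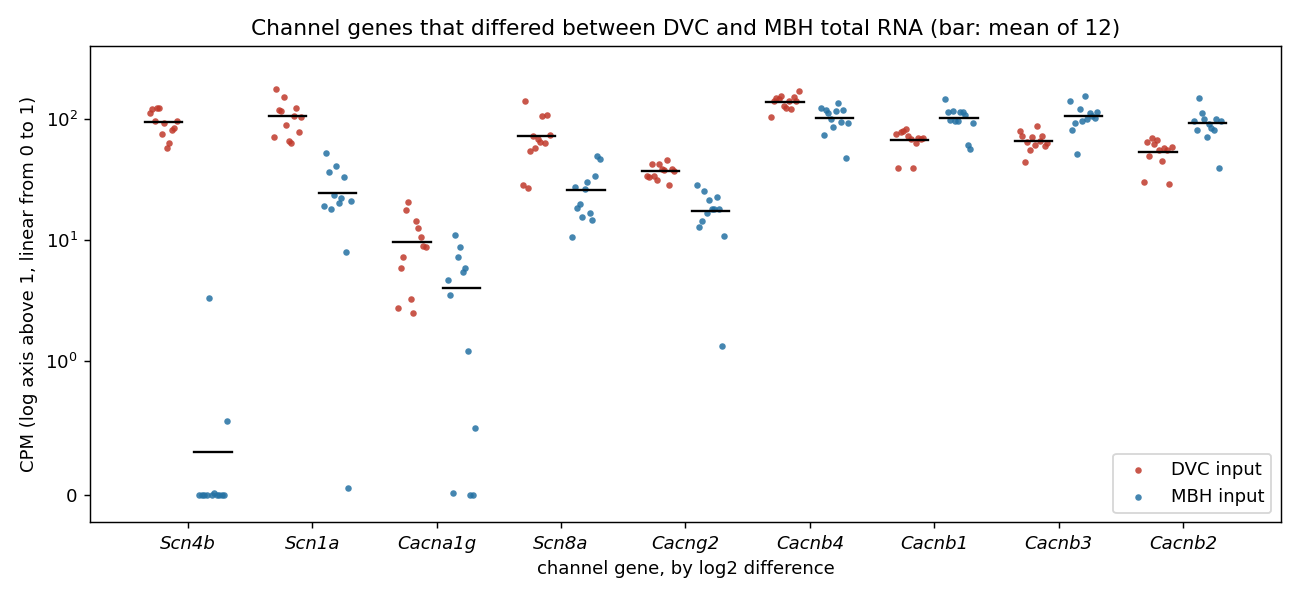
CPM (y axis, logarithmic above 1 and linear from 0 to 1) of the 9 channel genes called between DVC and MBH total RNA, by log2 difference from highest to lowest. Points are libraries (12 per region) and bars are means; Scn4b, Scn1a and Cacng2 do not overlap between the regions, and the Cacnb genes at the right are lower in DVC.

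The pore-forming calcium channel genes stood lower, all with mean input levels under 1 RPKM. Cacna1b (Cav2.2, the N-type channel of nerve terminals) averaged 0.351 ± 0.392 RPKM in DVC IP against 0.564 ± 0.218 in DVC input, and 0.728 ± 1.46 in MBH IP against 0.961 ± 1.55 in MBH input. Cacna1a (Cav2.1, the P/Q-type channel of nerve terminals) averaged 0.0137 ± 0.0260 RPKM in DVC IP against 0.209 ± 0.191 in DVC input, and 0.0404 ± 0.0625 in MBH IP against 0.344 ± 0.783 in MBH input. Cacna1e (Cav2.3, R-type) averaged 0.100 ± 0.289 RPKM in DVC IP against 0.197 ± 0.127 in DVC input, and 0.177 ± 0.348 in MBH IP against 0.221 ± 0.191 in MBH input. Without MBH input saline replicate 2, Cacna1a averaged 2.39 CPM in DVC input and 1.36 ± 1.02 CPM in MBH input (3.93 CPM with it), and Cacna1b averaged 5.61 CPM in DVC input and 5.19 ± 2.94 CPM in MBH input (9.56 CPM with it). Scatter between libraries was wide for all 3, and none was called between the regions in total RNA.

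The L-type genes Cacna1c (Cav1.2) and Cacna1d (Cav1.3, which opens at lower voltage and serves pacemaking) were each at 0 in some input libraries of both regions. Cacna1c averaged 0.0130 ± 0.0449 RPKM in DVC IP against 0.0952 ± 0.0937 in DVC input, and 0.0180 ± 0.0356 in MBH IP against 0.0719 ± 0.0886 in MBH input. Cacna1d averaged 0.00724 ± 0.0251 RPKM in DVC IP against 0.446 ± 0.587 in DVC input, and 0.163 ± 0.419 in MBH IP against 0.421 ± 0.461 in MBH input. Cacna1f, the retinal L-type gene, averaged 0.0292 ± 0.0580 RPKM in DVC IP against 0.00310 ± 0.00641 in DVC input, and 0.0224 ± 0.0565 in MBH IP against 0.00399 ± 0.00903 in MBH input. Cacna1s, the L-type gene of skeletal muscle, was at 0 in all 12 DVC IP libraries, against a mean of 0.0358 ± 0.0841 RPKM in DVC input, and 0.0530 ± 0.124 in MBH IP against 0.196 ± 0.228 in MBH input. Part of the exon bases of Cacna1s (20%) and Cacna1d (4.67%) overlaps genes of the other strand, and the library kits do not mark strand.

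T-type channels open near rest and drive burst firing. Cacna1g (Cav3.1) averaged 1.23 ± 1.71 RPKM in DVC IP against 0.944 ± 0.579 in DVC input, and 0.242 ± 0.627 in MBH IP against 0.395 ± 0.369 in MBH input. Cacna1h (Cav3.2) averaged 0.173 ± 0.437 RPKM in DVC IP against 0.327 ± 0.430 in DVC input, and 0.545 ± 0.766 in MBH IP against 0.730 ± 0.632 in MBH input. Cacna1i (Cav3.3) averaged 0.0193 ± 0.0670 RPKM in DVC IP against 0.135 ± 0.111 in DVC input, and 0.370 ± 0.414 in MBH IP against 0.267 ± 0.254 in MBH input. Cacna1g was the alpha1 gene called between the regions: it ranged over 2.47 to 20.6 CPM (median 8.80) in DVC inputs and 0 to 10.9 CPM (median 4.09) in MBH inputs, with 4 of 12 DVC libraries above every MBH library. Its log2 difference was 2.17 ± 0.75 (edgeR adjusted p = 0.0449), and it was no longer called in 17 of the 24 fits that each left out 1 library (highest adjusted p = 0.0792). That fitted value averages over treatment groups, and the MBH saline libraries were near 0 (0, 0 and 0.499 CPM). The plain DVC to MBH ratio of mean CPM was 2.39.

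Alpha2delta proteins sit outside the membrane and set how many channels reach the terminal; Cacna2d1 and Cacna2d2 encode the targets of gabapentin. Cacna2d1 averaged 0.260 ± 0.538 RPKM in DVC IP against 1.14 ± 0.613 in DVC input, and 1.08 ± 1.42 in MBH IP against 2.83 ± 1.49 in MBH input. Cacna2d2 averaged 0.258 ± 0.361 RPKM in DVC IP against 1.95 ± 0.904 in DVC input, and 0.739 ± 1.41 in MBH IP against 0.956 ± 0.589 in MBH input. Cacna2d3, which does not bind gabapentin well, averaged 1.15 ± 1.49 RPKM in DVC IP against 2.67 ± 1.42 in DVC input, and 1.78 ± 2.37 in MBH IP against 1.00 ± 0.827 in MBH input. Cacna2d4, of the retina, averaged 0.0695 ± 0.241 RPKM in DVC IP against 0.143 ± 0.237 in DVC input, and 0.139 ± 0.252 in MBH IP against 0.234 ± 0.367 in MBH input. Cacna2d1 held a median 17.5% of the family's summed RPKM in DVC input and 58.0% in MBH input, and Cacna2d3 held 46.3% in DVC input and 22.3% in MBH input.

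None of the alpha2delta genes was called between the regions with all libraries. Cacna2d1 ranged over 0.291 to 24.4 CPM (median 13.8) in DVC inputs and 2.53 to 65.8 CPM (median 34.3) in MBH inputs (log2 difference -1.33 ± 0.50, edgeR adjusted p = 0.0633). Without MBH input saline replicate 2, where it had 2.53 CPM, its log2 difference was -1.47 (edgeR adjusted p = 0.0192) and it was the 1 member added to the called genes. Cacna2d3 ranged over 6.12 to 49.7 CPM (median 20.8) in DVC inputs and 0.250 to 23.9 CPM (median 8.62) in MBH inputs (log2 difference 1.46 ± 0.55, edgeR adjusted p = 0.0646). Cacna2d2 had a log2 difference of 1.09 ± 0.48 (edgeR adjusted p = 0.112).

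The cytoplasmic beta genes had counts in every input library of both regions. Cacnb1 averaged 12.5 ± 6.82 RPKM in DVC IP against 14.8 ± 3.11 in DVC input, and 23.6 ± 10.5 in MBH IP against 22.2 ± 5.32 in MBH input. Cacnb2 averaged 6.85 ± 4.06 RPKM in DVC IP against 4.06 ± 1.00 in DVC input, and 7.72 ± 5.67 in MBH IP against 6.91 ± 1.94 in MBH input. Cacnb3 averaged 9.35 ± 3.17 RPKM in DVC IP against 16.5 ± 2.80 in DVC input, and 36.5 ± 11.6 in MBH IP against 26.3 ± 6.59 in MBH input. Cacnb4, whose loss causes the lethargic mouse, averaged 22.2 ± 6.36 RPKM in DVC IP against 15.5 ± 1.99 in DVC input, and 14.3 ± 4.05 in MBH IP against 11.3 ± 2.73 in MBH input. All 4 were called between the regions in total RNA, 3 of them lower in DVC and Cacnb4 higher, so that the family split by member.

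Cacnb3 ranged over 44.1 to 86.8 CPM (median 64.9) in DVC inputs and 51.5 to 154 CPM (median 103) in MBH inputs (log2 difference -0.65 ± 0.15, edgeR adjusted p = 0.00318). Cacnb2 ranged over 28.7 to 69.5 CPM (median 56.7) in DVC inputs and 39.1 to 148 CPM (median 93.7) in MBH inputs (log2 difference -0.75 ± 0.17, edgeR adjusted p = 0.00384). Cacnb1 ranged over 38.9 to 83.1 CPM (median 69.4) in DVC inputs and 55.8 to 145 CPM (median 103) in MBH inputs (log2 difference -0.55 ± 0.13, edgeR adjusted p = 0.00402). For each of these 3 genes the ranges overlapped, with 1 or 2 DVC libraries below every MBH library.

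Cacnb4 ranged over 103 to 169.5 CPM (median 141) in DVC inputs and 47.1 to 135 CPM (median 105) in MBH inputs. In 8 of 12 DVC libraries it lay above every MBH library, and the log2 difference was 0.48 ± 0.13 (edgeR adjusted p = 0.0129). Of its exon bases, 16% overlap A430018G15Rik on the other strand, so that reads of the 2 genes cannot be told apart there. Within the family's summed RPKM, Cacnb4 held a median 31.4% in DVC input and 15.8% in MBH input.

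Among the gamma genes, Cacng2 (stargazin, which carries AMPA receptors to the synapse) averaged 10.5 ± 3.28 RPKM in DVC IP against 6.66 ± 0.919 in DVC input, and 3.60 ± 2.12 in MBH IP against 3.14 ± 1.29 in MBH input. Cacng3, its closest relative, averaged 7.24 ± 6.81 RPKM in DVC IP against 7.49 ± 2.62 in DVC input, and 3.13 ± 3.01 in MBH IP against 6.51 ± 4.70 in MBH input. Cacng4, a TARP like them, averaged 1.69 ± 1.64 RPKM in DVC IP against 1.84 ± 0.953 in DVC input, and 3.28 ± 3.63 in MBH IP against 2.92 ± 1.67 in MBH input. Cacng5, also a TARP, averaged 0.795 ± 1.54 RPKM in DVC IP against 3.32 ± 1.86 in DVC input, and 0.716 ± 1.71 in MBH IP against 2.92 ± 2.44 in MBH input. Cacng7, a TARP known from the cerebellum, averaged 0.0615 ± 0.0474 RPKM in DVC IP against 0.0826 ± 0.0955 in DVC input, and 0.0176 ± 0.0371 in MBH IP against 0.0351 ± 0.0418 in MBH input. Cacng8, the TARP best known from hippocampus, averaged 0.109 ± 0.193 RPKM in DVC IP against 0.193 ± 0.254 in DVC input, and 0.0754 ± 0.138 in MBH IP against 0.249 ± 0.218 in MBH input. Cacng6 had counts in 2 MBH input and 2 MBH IP libraries and none in DVC, and Cacng1, the gamma subunit of the muscle channel, had 1 count in 1 MBH input library.

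Cacng2 was the gamma gene called in total RNA. It ranged over 28.4 to 45.9 CPM (median 37.2) in DVC inputs and 1.34 to 28.3 CPM (median 18.0) in MBH inputs, with no overlap, though the gap was narrow: the lowest DVC library had 28.4 CPM and the highest MBH library 28.3 CPM. The log2 difference was 1.16 ± 0.27 (edgeR adjusted p = 0.00446), and 1.03 without MBH input saline replicate 2 (edgeR adjusted p = 0.000112). The antisense gene A730060N03Rik overlaps 5.86% of its exon bases. The log2 differences of the others tested were 0.25 ± 0.59 for Cacng3, -0.71 ± 0.54 for Cacng4, 0.23 ± 0.79 for Cacng5, 1.06 ± 0.82 for Cacng7 and -0.35 ± 0.92 for Cacng8, and none was called.

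Partners of the channels were described from lists of gene names. Of 11 sodium channel and initial segment partners, 6 were higher and 1 lower in DVC total RNA. The beta-IV spectrin gene Sptbn4 (log2 difference 2.41), Nfasc (neurofascin, 1.65), Ank3 (ankyrin G, 0.57) and Ank2 (ankyrin B, 0.89), which build the initial segment and axon membrane, were higher, as were Fgf11 (3.70) and Fgf12 (0.60), intracellular factors that bind the alpha subunit tail. The lower one was Nedd4l (-0.97), a ubiquitin ligase that removes sodium channels from the membrane. The median log2 difference of this list was 0.60, against 0.10 over all genes tested.

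Of 17 calcium channel partners and regulators, 3 were higher and 6 lower in DVC total RNA. Cabp1 (4.41), a calmodulin-like protein that acts on Cav channels, Stac2 (2.85), an adaptor of L-type channels, and Calm3 (0.27) were higher. The calmodulin kinase genes Camk2a (-2.22) and Camk2b (-0.85), the small GTPase genes Rrad (-2.90) and Rem2 (-1.22), which lower channel currents, Rimbp2 (-1.28), which tethers Cav2 channels at release sites, and Calm2 (-0.43) were lower. None of the 3 genes of the sodium leak complex (Nalcn, Unc79, Unc80) was called.

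Markers of cell types moved with region as well. In DVC total RNA 7 of 8 neuronal, 7 of 7 astrocyte and 6 of 6 oligodendrocyte markers were higher, 1 of 4 oligodendrocyte precursor and 1 of 6 microglial markers were higher, and none of 4 endothelial, 4 mural and 3 mitochondrial markers was called. Of 4 ependymal and 3 skeletal muscle markers, 1 each was lower. The 8 neuronal markers summed to 10850 to 13210 CPM in DVC inputs and 4637 to 6526 CPM in MBH inputs, and the 6 oligodendrocyte markers to 5964 to 8903 CPM in DVC inputs and 1407 to 3205 CPM in MBH inputs. Their part in the regional differences of the channel genes was not tested.

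On pS6 ribosomes, 32 channel genes passed the filter, of which 2 were higher and 2 lower in DVC. Over all 17230 genes tested, 3.11% were called higher and 2.79% lower, 5.89% in all, against 12.5% of the tested channel genes. The median log2 difference was -0.82 for the channel genes and 0.11 over all genes. Scaling by DESeq2 size factors put the median of all genes at -0.05 and gave 1 higher and 2 lower. Leaving out any 1 of the DVC IP libraries saline replicate 1, AC170222 replicates 1 and 2, and combination replicates 1, 2 and 3 left 2 members called, 1 in each direction. The shares of all genes called in these alternative fits are not given here.

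Scn4b in the IP ranged over 44.1 to 172 CPM (median 94.6) in DVC, and in MBH it had counts in 1 of 12 libraries, 7.90 CPM in saline replicate 1. Every DVC IP library lay above every MBH IP library (edgeR adjusted p = 0.000162). Cacng2 ranged over 31.0 to 93.2 CPM (median 56.8) in DVC IP and 2.08 to 45.4 CPM (median 18.5) in MBH IP, with 9 of 12 DVC libraries above every MBH library (log2 difference 1.64 ± 0.44, edgeR adjusted p = 0.0316). That call was lost with DESeq2 size factors (1.43, adjusted p = 0.0648) and in 20 of 24 fits that each left out 1 library (highest adjusted p = 0.0908).

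Cacnb3 ranged over 19.5 to 61.4 CPM (median 35.0) in DVC IP and 78.5 to 222 CPM (median 149) in MBH IP. The sets did not overlap, and the log2 difference was -1.97 ± 0.29 (edgeR adjusted p = 0.000347). Cacna1i had counts in 1 of 12 DVC IP libraries (2.29 CPM) and in 8 of 12 MBH IP libraries, up to 13.7 CPM; it averaged 0.191 ± 0.661 CPM in DVC and 3.65 ± 4.08 CPM in MBH (edgeR adjusted p = 0.0257). It was no longer called in 8 of 24 fits that each left out 1 library, with an adjusted p of 1 without MBH IP AC3174 replicate 1. Without the libraries under 12000 genes its adjusted p was 0.0545, and the other 3 members were still called.

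Scn1a and Scn8a, called in total RNA, were not called on ribosomes. Scn1a ranged over 5.78 to 230.2 CPM (median 58.6) in DVC IP and 0 to 71.5 CPM (median 16.4) in MBH IP (log2 difference 2.04 ± 1.19, edgeR adjusted p = 0.422). Scn8a ranged over 0 to 114 CPM (median 31.4) in DVC IP and 0 to 13.3 CPM (median 3.64) in MBH IP (log2 difference 2.58 ± 1.42, edgeR adjusted p = 0.377).

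Of the partner lists, 0 of 11 initial segment genes were called on ribosomes by edgeR, with 3 at an unadjusted p under 0.05. Of the 17 calcium channel partners, Calm2 (0.63), Calm3 (0.74) and Stac2 (2.82) were higher in DVC IP, and Camk2a (-2.53) and Camk2b (-1.70) lower. Neuronal markers were higher in DVC IP for 6 of 8 genes, and their sum was 14420 to 36410 CPM in DVC IP and 3223 to 7982 CPM in MBH IP. Of the other cell type lists, 1 of 7 astrocyte markers was higher and 2 of 4 ependymal markers were lower. The part of the markers in these differences was not tested.

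IP was then set against input within each region. In DVC, 33 channel genes passed the filter, of which 1 was higher and 9 were lower in IP. Over all 18465 genes tested, 6.8% were called higher and 13.6% lower, 20.4% in all, against 30.3% of the tested channel genes. The median log2 difference was -1.32 for the channel genes and -0.37 over all genes (-0.47 with DESeq2 size factors). With same-numbered IP and input libraries taken as a block, 3 members were called, all lower. Counts over all genes with the block are given at the end. No member separated completely: all 38 had overlapping ranges, and how many of all genes separated was not counted. Cacng1, Cacng6, Scn4a and Scn10a had no count in either set and so could not separate.

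Cacnb3 was the lower member with counts in every IP library. Cacnb3 ranged over 19.5 to 61.4 CPM (median 35.0) in DVC IP and 44.1 to 86.8 CPM (median 64.9) in DVC input, with 9 of 12 IP libraries below every input library (log2 difference -0.93 ± 0.21, edgeR adjusted p = 0.00476). It fell by more than the median of all genes.

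The other 8 lower members were at 0 in many IP libraries. Cacna1d, Cacna1c, Cacna1i and Cacna2d4 each had counts in 1 of 12 IP libraries, and in 11, 10, 10 and 7 of 12 inputs in that order of genes. Cacna1d averaged 0.0914 ± 0.317 CPM in DVC IP and 5.63 ± 7.41 CPM in DVC input (edgeR adjusted p = 0.00448). Cacna1c averaged 0.275 ± 0.951 CPM in DVC IP and 2.02 ± 1.99 CPM in DVC input (edgeR adjusted p = 0.00642). For each of these 4 genes a single DVC IP library held every read of the set.

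Cacna1i averaged 0.191 ± 0.661 CPM in DVC IP and 1.33 ± 1.10 CPM in DVC input (edgeR adjusted p = 0.00779). Cacna2d4 averaged 0.659 ± 2.28 CPM in DVC IP and 1.35 ± 2.25 CPM in DVC input (edgeR adjusted p = 0.0288). Of the lower members with counts in several IP libraries, Cacna2d1 ranged over 0 to 22.2 CPM (median 0.0153) in DVC IP and 0.291 to 24.4 CPM (median 13.8) in DVC input, with 8 of 12 IP libraries below every input (edgeR adjusted p = 0.00407).

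Cacna1a ranged over 0 to 0.845 CPM (median 0) in DVC IP and 0.179 to 7.21 CPM (median 2.09) in DVC input (edgeR adjusted p = 0.00798). Scn3b ranged over 0 to 62.5 CPM (median 0.336) in DVC IP and 12.9 to 48 CPM (median 32.4) in DVC input (edgeR adjusted p = 0.0280). Cacng5 ranged over 0 to 18.6 CPM (median 0) in DVC IP and 2.51 to 26.6 CPM (median 12.4) in DVC input (edgeR adjusted p = 0.0320). For Scn3b the IP libraries fell into very different levels, with 4 at 0 and 1 above every input.

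The fitted log2 differences of these 8 genes depend on the prior count and are not given. The call of Cacna2d4 was lost in 5 of 24 fits that each left out 1 library, with an adjusted p of 1 without DVC input combination replicate 2. Those of Scn3b and Cacng5 were lost in 6 and 8 of 24 fits, with adjusted p of 0.0562 and 0.0674 at most.

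Cacnb4 was the member higher in DVC IP. It ranged over 130.2 to 324 CPM (median 185) in DVC IP and 103 to 169.5 CPM (median 141) in DVC input, with 7 of 12 IP libraries above every input library (log2 difference 0.42 ± 0.15, edgeR adjusted p = 0.0493). The call stood at the threshold: with DESeq2 size factors the log2 difference was 0.31 (adjusted p = 0.167), and without DVC IP saline replicate 3 the adjusted p was 0.0537. Scn4b had close medians in both kinds of DVC RNA, 44.1 to 172 CPM (median 94.6) in IP and 57.3 to 123 CPM (median 94.5) in input (log2 difference -0.03 ± 0.20, edgeR adjusted p = 1). Cacng2 had a log2 difference of 0.56 ± 0.21 (edgeR adjusted p = 0.0617), and 0.71 (adjusted p = 0.00882) without the DVC IP library under 12000 genes, where all 10 members called with it were called too.

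Genes with a count numbered 9925 to 16796 in DVC IP libraries and 16569 to 18200 in DVC inputs, although the IP libraries held more reads, and the part of this in the lower IP counts was not tested. Cell type markers moved in the same comparison. In DVC IP, 5 of 8 neuronal and 1 of 7 astrocyte markers were higher. Lower were 4 of 6 oligodendrocyte, 5 of 6 microglial, 3 of 4 oligodendrocyte precursor and 3 of 4 endothelial markers. So were 3 of 4 mural, 1 of 4 ependymal and 3 of 3 mitochondrial markers. Of the sodium channel partners Fgf12 (0.66) and Fgf11 (1.32) were higher in IP, and Sptbn4 (-5.19) lower. Of the calcium channel partners Stac2 (0.82) and Calm2 (0.36) were higher and Camk2b (-0.54) lower.

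In MBH, none of the 34 channel genes tested was called between IP and input by edgeR; 4 had an unadjusted p under 0.05, limma-voom called 2 and DESeq2 called 2, all lower in IP. Over all 17461 genes tested, edgeR called 0.16% higher and 0.292% lower, 0.452% in all, limma-voom called 2.82% and DESeq2 11.1%. Without MBH IP AC3174 replicate 1, edgeR called 2 channel genes, both lower in IP, and 861 genes of the whole table (4.7%), against 79 with it. The 3 smallest p-values belonged to Cacng8, Cacng5 and Scn7a. Cacng8 ranged over 0 to 1.05 CPM (median 0) in MBH IP and 0.0522 to 1.63 CPM (median 0.382) in MBH input (edgeR adjusted p = 0.103). Cacng5 ranged over 0 to 22.4 CPM (median 0) in MBH IP and 0 to 25.8 CPM (median 8.26) in MBH input (edgeR adjusted p = 0.281). Scn7a ranged over 0 to 16.3 CPM (median 0.0146) in MBH IP and 0 to 11.8 CPM (median 3.58) in MBH input (edgeR adjusted p = 0.371).

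Of the 6 members with counts in every MBH library, those called in the DVC comparison are given here. Cacnb3 averaged 146 ± 46.4 CPM in MBH IP and 105 ± 26.4 CPM in MBH input (log2 difference 0.42 ± 0.22, edgeR adjusted p = 0.517). Cacnb4 averaged 128 ± 36.3 CPM in MBH IP and 101 ± 24.5 CPM in MBH input (log2 difference 0.32 ± 0.23, edgeR adjusted p = 0.836). Of the partner and cell type lists, Calm2 (-0.68) and 1 of 3 mitochondrial markers were lower in MBH IP.

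The difference between the regions in IP versus input was tested directly over all 48 libraries. Of 35 channel genes tested, none had a higher IP-to-input difference in DVC and 3 had a lower one, against 2.33% higher and 2.06% lower (4.39% in all) of 19416 genes. These were Cacnb3 (-1.27 ± 0.29 on the log2 scale, edgeR adjusted p = 0.00623), Cacna1i (adjusted p = 0.0147) and Cacna1d (adjusted p = 0.0169). For Cacnb3, IP lay below input in the DVC means and above input in the MBH means. Of the partners, Calm2 (1.09) had a higher difference in DVC and Camk2b (-0.80) a lower one. Of the cell type markers, 5 of 8 neuronal ones had a higher difference. Lower differences were called for 2 of 6 oligodendrocyte, 2 of 6 microglial and 1 of 4 oligodendrocyte precursor markers.

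Cacna1i and Cacna1d were each found in 1 DVC IP library, so their fitted sizes are not given here. In MBH IP, Cacna1i had counts in 8 libraries and Cacna1d in 5. The median of all genes in this test was 0.03, and -0.33 with DESeq2 size factors, under which the same number of members, 3, was called. With limma-voom Cacnb3 was called, while Cacna1i (-5.67, adjusted p = 0.054) and Cacna1d (-4.18, adjusted p = 0.165) were not. Of the 3 fits that left out all libraries of 1 replicate number, 2 lost the calls of Cacnb3 and Cacna1d, and all 3 lost that of Cacna1i. Without the libraries under 12000 genes all 3 were called, and Cacna1a was added (adjusted p = 0.0224). With same-numbered IP and input libraries taken as a block, none was called (edgeR adjusted p = 0.077 for Cacnb3).

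**Figure D5:**
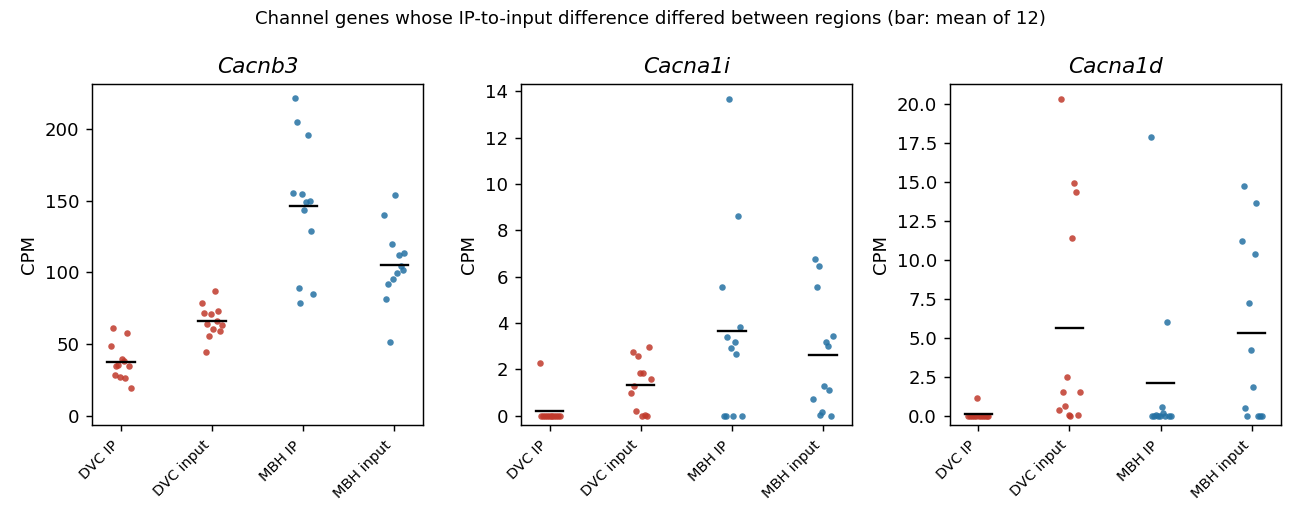
CPM (y axis, linear) of the 3 channel genes whose IP-to-input difference was called as different between the regions, in DVC IP, DVC input, MBH IP and MBH input. Points are libraries (12 per set) and bars are means; Cacnb3 is lowest in DVC IP, and Cacna1i and Cacna1d have 1 DVC IP library above 0.

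The drugs were compared with saline within each region and RNA kind (12 libraries per fit, 3 per group), and the combination was also tested against the sum of the single-drug differences (non-additivity). These were 16 comparisons with 480 tests of channel genes, all of whose contrasts within a fit share the saline libraries. In the codes of the sample titles, saline and AC170222 hold the lower numbers, and AC3174 and the combination the higher. The labels do not say what these codes mark. A batch that followed them could not be fully told apart from AC3174 or the combination. No channel gene and no gene of the whole table was called by edgeR in any of the 16 comparisons (0% of genes in each). At an unadjusted p under 0.05 there were 29 of the 480 member tests (6.04%), against 4.82% of the tests of all genes, and 15 of the 29 were of a gene at 0 in all 3 libraries of a group. Among the channel genes limma-voom called 0 and DESeq2 called 26 of 444 tests (5.86%), of which 22 were of a gene at 0 in all 3 libraries of a group. Over all genes, limma-voom called 0.0251% and DESeq2 3.51% of the tests of the 16 comparisons, and DESeq2 called 158 to 1144 genes in each. The other 4 DESeq2 calls, named after their values were seen, were Scn3b in DVC IP with AC3174 (adjusted p = 0.00874) and with the combination (0.00367), and in MBH input Cacnb1 with AC3174 (0.0219) and Cacna1g with AC170222 (log2 difference 5.76, adjusted p = 0.0427).

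In DVC input, Scn4b was among the 3 smallest p-values with AC3174 and the first for non-additivity. It had 113, 121 and 96.4 CPM with AC3174, 122, 123 and 74.2 CPM with AC170222, 92.9, 57.3 and 62.6 CPM with the combination, and 81.1, 83.5 and 96.1 CPM with saline. Both single-drug means lay above saline and the combination mean below it; the non-additivity was -0.95 ± 0.32 on the log2 scale (edgeR unadjusted p = 0.0128, adjusted p = 0.952). Scn3a, the first with AC170222, had 26.6, 13.2 and 17.9 CPM with AC3174, 11.7, 12.9 and 20 CPM with AC170222, 12.1, 28.8 and 28.3 CPM with the combination, and 36.2, 34.7 and 19.2 CPM with saline (AC170222 log2 difference -0.99 ± 0.43, edgeR adjusted p = 1). Its AC170222 and saline libraries overlapped by 1 library.

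Cacnb2, also among the 3 smallest with AC170222, had 30.1, 64.4 and 49.6 CPM with AC3174, 69.5, 62.4 and 66.8 CPM with AC170222, 55.7, 45.2 and 57.7 CPM with the combination, and 55.4, 28.7 and 58.6 CPM with saline (AC170222 log2 difference 0.50 ± 0.31). Cacna1e, the first with the combination, had 2.99, 1.82 and 7.89 CPM with AC3174, 1.91, 8.80 and 4.52 CPM with AC170222, 8.53, 8.92 and 6.73 CPM with the combination, and 5.70, 1.63 and 0.237 CPM with saline (combination log2 difference 1.71 ± 1.06). For Cacna1e the combination libraries were above the saline libraries, and for Cacnb2 all AC170222 libraries were. Cacnb4, also among the 3 smallest with the combination, had 103, 139.7 and 149 CPM with AC3174, 146, 153 and 127 CPM with AC170222, 123, 141 and 121 CPM with the combination, and 152, 142 and 169.5 CPM with saline (combination log2 difference -0.24 ± 0.17), and every combination library lay below every saline library. Cacng7 and Scn11a, the other genes among the 3 smallest p-values of a DVC input comparison, lay under 1 CPM in most libraries.

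In DVC IP, the smallest p-values belonged to genes absent or nearly absent from saline. Cacna2d1 had 22.2, 0.685 and 8.93 CPM with AC3174, 0, 0 and 6.61 CPM with AC170222, 0.257, 0 and 0.0306 CPM with the combination, and 0 in all 3 libraries with saline. Scn3b had 46.0, 0 and 0 CPM with AC3174, 10.1, 0.645 and 2.47 CPM with AC170222, 62.5, 0.00812 and 24.4 CPM with the combination, and 0, 0 and 0.0279 CPM with saline. Cacng5 had 10.9, 0 and 0 CPM with AC3174, 2.15, 0 and 18.6 CPM with AC170222, 4.94, 0 and 0 CPM with the combination, and 0 in all 3 libraries with saline. Each was at 0 in all saline libraries, except Scn3b with 0.0279 CPM in replicate 3, and within a drug group the 3 libraries of a gene differed widely. The edgeR adjusted p was 0.677 or more in all 3 drug comparisons, and 0.968 or more for non-additivity, where Cacng4 was among the 3 genes. Cacng4 had 13.5, 14.1 and 2.87 CPM with AC3174, 4.69, 12.4 and 14.8 CPM with AC170222, 1.01, 4.09 and 1.78 CPM with the combination, and 0.0730, 3.13 and 0.00557 CPM with saline.

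In MBH input, Cacna1d had 11.2, 14.8 and 0.470 CPM with AC3174, 0, 7.22 and 4.22 CPM with AC170222, 1.82, 10.4 and 13.7 CPM with the combination, and 0 in all 3 libraries with saline. It was seen in 8 of 9 drug libraries and in none of the saline libraries (edgeR adjusted p was 0.560 for AC3174, 0.709 for AC170222 and 0.491 for the combination). DESeq2 called this gene in all 3 drug comparisons. Saline replicate 2, the library that stood apart, is 1 of the 3 saline libraries.

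Cacnb1 had 145, 113 and 98.2 CPM with AC3174, 115, 95.1 and 95.8 CPM with AC170222, 113, 113 and 108 CPM with the combination, and 61.1, 55.8 and 93.2 CPM with saline. Every library of each drug group lay above every saline library (log2 difference 0.78 ± 0.24 with AC3174, edgeR adjusted p = 0.560; 0.70 ± 0.24 with the combination, adjusted p = 0.566). DESeq2 gave an adjusted p of 0.0219 with AC3174. Leaving out 1 library at a time gave AC3174 log2 differences of 0.60 to 1.03 for Cacnb1. Scn8a had 10.6, 27.1 and 18.4 CPM with AC3174, 19.8, 15.5 and 26.5 CPM with AC170222, 29.9, 16.6 and 14.7 CPM with the combination, and 33.5, 49.4 and 46.1 CPM with saline, so that every drug library lay below every saline library (AC3174 log2 difference -1.19 ± 0.48, edgeR adjusted p = 0.560; -1.54 to -0.92 leaving out 1 library at a time). The drug groups were set against the same 3 saline libraries, so these separations are not independent of each other. Saline replicate 2, the library that stood apart, had the lowest Cacnb1 (55.8 CPM) and the highest Scn8a (49.4 CPM) of the MBH inputs. How many of all genes separated from saline in this way was not counted in any drug comparison.

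Cacna2d4 had 2.33, 0 and 0 CPM with AC3174, 11.7, 0 and 2.78 CPM with AC170222, 0.757, 4.18 and 4.86 CPM with the combination, and 0 in all 3 libraries with saline. Cacna1s had 0, 0 and 2.45 CPM with AC3174, 0, 3.84 and 1.12 CPM with AC170222, 2.68, 3.40 and 1.89 CPM with the combination, and 0 in all 3 libraries with saline. Neither was seen in saline, and both were called by DESeq2 and by neither edgeR nor limma-voom with AC170222. Scn11a, the second by p for non-additivity, had no count with either single drug, 1 saline library with 0.960 CPM, and 2 combination libraries up to 0.953 CPM.

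In MBH IP, the channel genes with the smallest p-values were again near 0. Scn7a had 0.0293, 0 and 0 CPM with AC3174, 0.125, 0 and 0 CPM with AC170222, 2.31, 0 and 3.53 CPM with the combination, and 0, 1.56 and 16.3 CPM with saline. Cacna1c had 0 in all 3 libraries with AC3174, 0.969, 0 and 0.0146 CPM with AC170222, 0, 0.910 and 0 CPM with the combination, and 0.199, 2.49 and 0 CPM with saline. Cacng8 had 0.439, 1.05 and 0 CPM with AC3174, 0 in all 3 libraries with AC170222, 0.437, 0 and 0.172 CPM with the combination, and 0, 0 and 0.0220 CPM with saline. Counts of each were missing from most libraries of the single-drug groups or of saline, and the edgeR adjusted p was 1 in these comparisons.

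Cacna2d4 had 0, 0.953 and 0 CPM with AC3174, 0 in all 3 libraries with AC170222, 2.84, 7.04 and 0 CPM with the combination, and 4.98, 0 and 0 CPM with saline in MBH IP. Cacna1d had 17.9, 0 and 0 CPM with AC3174, 0.0625, 0 and 0 CPM with AC170222, 0.562, 0.155 and 0 CPM with the combination, and 6.00, 0 and 0 CPM with saline there. Cacna1e had 0.731, 0 and 0 CPM with AC3174, 5.82, 0 and 0 CPM with AC170222, 2.00, 0 and 0 CPM with the combination, and 18.6, 0 and 26.5 CPM with saline there. The gene with counts in all 12 libraries among these, Cacnb3, had 155, 222 and 205 CPM with AC3174, 89.2, 78.5 and 155 CPM with AC170222, 144, 149 and 196 CPM with the combination, and 149.6, 129 and 85.1 CPM with saline (combination log2 difference 0.45 ± 0.54, edgeR adjusted p = 1). Its combination libraries overlapped the saline ones.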

How the data were processed

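The deposited table holds the authors' raw read counts per gene for 48 libraries, with no normalization. Libraries were made with SMART-Seq v4 amplification and Nextera XT, per the labels' protocols, a design without molecular identifiers or strand, so counts are of reads and not of independent molecules. The submitters' processing notes name TopHat2 2.0.11, HTSeq 0.6.1p1 and the build GRCm38. Ensembl identifiers were matched to GENCODE M21 symbols and coordinates (36345 of 38293), and promoter sequence was taken from RefSeq GRCm38.p6, where 30 of the 38 members had an entry.

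Groups were taken from the sample titles. Genes were filtered with filterByExpr, scaled by TMM and tested with edgeR 4.0.16 (quasi-likelihood test, 1 mean per group, Benjamini-Hochberg adjustment over all genes tested) in R 4.3.3. CPM used TMM-scaled library sizes, and RPKM divided these by the union of annotated exons. Tables were summarised with python 3.11.15 and pandas 2.3.3. Only the fits of the regions in total RNA and of the drugs in DVC input were tried on simulated data. One read was worth 0.00557 to 0.0337 CPM across libraries.

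The members and the partner and marker lists were chosen with earlier results of these data known. Members and list genes that are not named are not reported here, and every count of members is over the 38 described. Every described member was named with its level, every called member with its test, and the 3 smallest p-values where none was called. Alternatives were DESeq2 size factors, no filter on low counts, limma-voom (limma 3.58.1), DESeq2 1.42.0 and a replicate block. Each library was also left out in turn, as were the libraries under 12000 genes. In the drug fits other than MBH IP, library sets assumed from the codes in the sample titles served as a covariate. The labels do not say what these codes mark. Input and IP libraries carry the same sample numbers in the titles, but the labels do not state that same-numbered libraries share a homogenate. Replicate numbers were not taken as pairs in the main fits. No 2 libraries of a group agreed within sampling noise (lowest chi-square per degree of freedom 135.5 over 48 pairs).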

Additional observations from a re-analysis of the deposited data

Results flagged for a closer look

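The IP-to-input difference of 3 channel genes differed between the regions by the interaction test over 48 libraries. On the log2 scale, DVC minus MBH, it was -1.27 for Cacnb3, -7.70 for Cacna1i and -8.66 for Cacna1d. The last 2 values depend on the prior count, since 11 of 12 DVC IP libraries held no read of either gene. The part of the lower number of genes detected in IP libraries was not tested.

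The combination libraries of Cacnb1 in total RNA lay on opposite sides of the saline libraries in the 2 regions, though in DVC only narrowly. This difference between the regions was not tested. In DVC Cacnb1 had 67.8, 39.5 and 63.6 CPM with the combination, against 69.3, 67.8 and 69.4 CPM with saline. The highest combination library (67.78 CPM) and the lowest saline library (67.8 CPM) nearly met. Thus 1 combination library lay far below saline and the other 2 close to it, and the DVC log2 difference was -0.25 ± 0.27. In MBH it had 113, 113 and 108 CPM with the combination, against 61.1, 55.8 and 93.2 CPM with saline, and every combination library lay above every saline library. The lowest of these saline values, 55.8 CPM, came from saline replicate 2, the MBH input that stood apart. The MBH log2 difference was 0.70, and neither combination difference was called by edgeR (adjusted p = 1 in DVC and 0.566 in MBH).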

How the results depend on the processing

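Of the 26 member calls made over the 5 comparisons of region and RNA kind, 24 held with DESeq2 size factors, 23 with no filter on low counts, 23 with limma-voom and 25 with DESeq2; over all fits that left out 1 library or replicate number, 489 tests of these calls held and 72 did not. None changed direction. The cause of these losses was not tested.

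The number of members called was 14 with limma-voom (8 higher, 6 lower) and 14 with DESeq2 (9 higher, 5 lower) for the regions in total RNA, 8 with DESeq2 (2 higher, 6 lower) and 2 with the replicate block for the regions on pS6 ribosomes, 16 with limma-voom and 3 with the block for IP versus input in DVC, 2 with limma-voom and 2 with DESeq2 for IP versus input in MBH, and 8 with DESeq2 and 0 with the block for the difference between the regions. With the replicate block 12 of the 26 calls held. It called none of the 3 members of the last comparison, with an adjusted p of 0.077 for Cacnb3, 0.427 for Cacna1i and 0.506 for Cacna1d. Same-numbered libraries deviated together unevenly: the correlation of their deviations passed 0.1 in 0 of 12 pairs of input and IP in either region (median 0.014 in DVC and 0.00353 in MBH), in 4 of 12 pairs of DVC and MBH inputs and 6 of 12 of DVC and MBH IPs, and across treatments in 3 of 18 for DVC IP, 3 of 18 for DVC input, 14 of 18 for MBH IP (median 0.152) and 2 of 18 for MBH input. No check had every pair above 0.1, but weak correlations between libraries that scatter this widely cannot exclude pairing. The titles give input and IP libraries the same sample numbers, and the labels do not state that these share a homogenate or animals. The numbers were therefore not taken as pairs in the main fits.

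The counts over the whole table moved too. For the regions in total RNA edgeR called 4067 genes, limma-voom 5548, DESeq2 5937 and the block 2998. For the regions on pS6 ribosomes these were 1015, 1408, 3230 and 372, for IP versus input in DVC 3776, 6412, 6091 and 1401, for IP versus input in MBH 79, 493, 1846 and 3, and for the difference between the regions 852, 1623, 3270 and 200. In the 16 drug comparisons edgeR called 0 genes, limma-voom 0 to 20 and DESeq2 158 to 1144.

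Leaving out 1 library at a time gave 8 to 11 called members for the regions in total RNA, 2 to 4 on pS6 ribosomes, 8 to 14 for IP versus input in DVC and 0 to 2 in MBH. Leaving out 1 replicate number gave 0 to 2 for the difference between the regions. The share of all genes called in each of these fits is not given here, so these member counts stand without a background. In the 16 drug comparisons leaving out a library gave 0 throughout, as did limma-voom and the block. The assumed library sets also gave 0, and were not run for MBH IP.

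DESeq2 called, in DVC IP, 3 members with AC3174, 2 with AC170222, 3 with the combination and 2 for non-additivity. In MBH input it called 4, 4, 3 and 3 in that order, and in MBH IP 1 with AC170222 and 1 for non-additivity. Over the 16 drug comparisons DESeq2 called 5.86% of the member tests and 3.51% of the tests of all genes. That pooled share is not the background of any single comparison, and the shares by comparison are not given here.

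Without 1 library, the log2 differences of 2 uncalled genes in the drug comparisons changed sign (Scn3b and Cacna1d) and 5 came to 0. With AC3174 in DVC input, Scn11a ranged from -8.44 to 0. In DVC IP, Scn3b ranged from -3.44 to 13.89 and Cacng5 from 0 to 12.48 with AC3174, Cacna2d1 from 0 to 11.70 with AC170222, and Cacng5 from 0 to 11.32 with the combination. In MBH IP with AC170222, Cacna2d4 ranged from -9.81 to 0 and Cacna1d from -9.50 to 3.02.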
